A study of Mus musculus with 16 samples.

Results

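The 10 genes described here are Atf4 and 9 genes of the cell's response to amino acid shortage and related stresses: Atf5, Atf3, Ddit3, Trib3, Chac1, Asns, Sesn2, Nupr1 and Ddit4. They were taken by exact gene symbol from the deposited count tables, where they are 10 of 25803 genes. Each of the 10 passed the filter on low counts and is among the 14488 genes tested. The libraries are bulk RNA sequencing of liver from male mice on a high-fat diet for 12 weeks, 4 libraries in each of 4 groups. Control mice and mice with a liver knockout of Cpt1a (LKO) were studied after a 16 h fast (fasted), and further mice of both genotypes after a 16 h fast and 6 h of refeeding (refed). Diet, sex and the preceding fast are shared by all 4 groups. No group was kept fasting through the 6 h of refeeding, so effects of refeeding and of the added time cannot be told apart. Cpt1a encodes the enzyme that lets long-chain fatty acids into mitochondria for oxidation. How the knockout was made, which promoter drove any recombinase, and whether each library is 1 mouse are not given in the sources used here, so p-values measure the spread between these libraries. Where livers of a group are named below, its libraries are meant.

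ATF4 is a transcription factor of the integrated stress response. When a kinase such as GCN2 (uncharged tRNA), PERK (unfolded protein in the endoplasmic reticulum, ER), HRI (mitochondrial stress and haem shortage) or PKR (double-stranded RNA) phosphorylates the initiation factor eIF2alpha, general translation falls while ATF4 mRNA is translated more, through small open reading frames in its leader. The level of Atf4 mRNA therefore need not follow the level of ATF4 protein, which RNA sequencing does not measure. ATF4 protein pairs with C/EBP factors on a composite element, the amino acid response element, and raises genes of amino acid uptake and synthesis, redox balance and feedback. The liver meets swings in amino acid supply with each meal and fast, and several of these genes also answer glucagon, insulin and glucocorticoids there.

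To show where that element lies in these genes, RefSeq promoters of build GRCm38.p6 (250 bases before to 50 after each start) were searched on both strands for the core of the composite element, TGATGNAA. It was found in 5 of the 10 genes, against 4.51% of 27025 symbols in the same table. The matches are shown in capitals below, read 5′ to 3′ on the strand of the gene, each with its flanks. The build of these coordinates is older than that of the deposited tables, so no coordinate here is compared with a gene span there.
Atf3 (chr1:191183421-191183458, minus strand): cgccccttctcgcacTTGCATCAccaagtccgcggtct
Chac1 (chr2:119351034-119351071, plus strand): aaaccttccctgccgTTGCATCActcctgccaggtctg
Nupr1 (chr7:126625558-126625595, minus strand): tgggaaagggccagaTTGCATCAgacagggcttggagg
Asns (chr6:7693210-7693247, minus strand): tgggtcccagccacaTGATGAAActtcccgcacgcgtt
Trib3 (chr2:152344028-152344057, minus strand): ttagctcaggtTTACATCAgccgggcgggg
In Atf3, Chac1 and Nupr1 the match reads TTGCATCA on the strand of the gene, so the element lies in reverse, and it begins 110, 193 and 110 bases before the start. In Asns it begins 23 bases before the start, and in Trib3 it begins 15 bases after it, inside the transcribed region. No match lay in the window of Atf4, Atf5, Ddit3, Sesn2 or Ddit4, which says only that these letters are not in that window. Neither the cyclic AMP element TGACGTCA (2.03% of symbols) nor the ER stress element, CCAAT and CCACG with 9 bases of any kind between them (0.137% of symbols), was matched in any of the 10 windows. Chac1, which had the largest genotype difference of the 10, is shown with its 250 bases before the start (GRCm38.p6, chr2:119350992-119351241, plus strand), the same match in capitals.
Chac1: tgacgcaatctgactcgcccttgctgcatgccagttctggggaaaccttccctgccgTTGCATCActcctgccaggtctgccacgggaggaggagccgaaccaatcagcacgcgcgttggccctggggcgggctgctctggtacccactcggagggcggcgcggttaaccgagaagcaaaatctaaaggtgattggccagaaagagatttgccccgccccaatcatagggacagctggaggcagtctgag

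Libraries held 14721601 to 24618230 counts. Values below are in CPM, counts scaled to a common library total with TMM factors, with mean ± SD over 4 libraries. As a check of the labels, Cpt1a was at 487 ± 83.2 CPM (n = 4) in fasted control and 101 ± 17.3 CPM (n = 4) in fasted LKO livers, and at 457 ± 137 and 54.2 ± 16.6 CPM in the refed groups. The 8 hepatocyte markers summed to 66991 CPM or more in every library. Their sum was 81996 to 90640 CPM in fasted control and 66991 to 77713 CPM in fasted LKO livers, without overlap, and 3 of the 8 (Ttr, Fgb and Serpina1c) were called lower in fasted LKO and 0 between refed groups. A pair of fasted libraries stood apart in smooth muscle genes: Acta2 was at 19.8 CPM in S40 (fasted control) and 45.5 CPM in S44 (fasted LKO), against 1.46 to 5.05 CPM in the other 14, and Myh11 at 16.9 and 22.2 CPM against 1.04 to 3.54 CPM. Krt19, a bile duct gene, was at 29.0 CPM in S44 and at most 2.22 CPM elsewhere. Calls that were lost with both left out are named beside the results. The 3 hepatocyte marker calls were among them, at an edgeR adjusted p of 0.098 for Ttr, 0.14 for Fgb and 0.13 for Serpina1c. The summed lymphocyte markers were higher in LKO (16.4 to 35.4 CPM fasted, 17.96 to 40.6 refed) than in control livers (4.74 to 9.38 fasted, 4.34 to 6.26 refed). In LKO livers most of that sum was Jchain, an antibody joining chain of plasma cells. Jchain was at 1.78 against 18.4 CPM fasted and 1.67 against 23.8 CPM refed, control against LKO, and was the 1 lymphocyte marker called of 7 tested in either state. The part of these markers in the results below was not tested. In bulk tissue fewer cells of a type and less RNA per cell cannot be told apart.

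Atf5, a close relative of ATF4 that is itself translated more under eIF2alpha phosphorylation, was by far the most abundant of the 10 per unit of length, at a mean of 281 CPM per kb of transcript over 16 libraries. Atf4 followed at 44.5 CPM per kb. The lowest library of Atf5 (129 CPM per kb) exceeded the highest of Atf4 (56.3 CPM per kb), and the lowest of Atf4 (31.9 CPM per kb) exceeded the highest of the 8 others, which was 21.4 CPM per kb for Trib3. Ddit3 (8.22), Trib3 (7.33), Ddit4 (5.50) and Sesn2 (4.70 CPM per kb) came next, with ranges over libraries that overlapped. Chac1 (2.76) and Atf3 (2.28 CPM per kb) lay below them, and Nupr1 (0.756) and Asns (0.507 CPM per kb) were lowest and overlapped each other.

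The genes also differed in how well livers of the same group matched. The pooled within-group SD of log2 CPM was 0.24 for Atf4, 0.27 for Sesn2 and 0.30 for Atf5, near the median of 0.23 over all genes tested. For Chac1 it was 0.78, for Ddit4 0.84 and for Asns 1.11, the last larger than in 99.2% of genes tested. Libraries held 3 to 138 counts of Asns and 3797 to 24845 counts of Atf5.

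**Figure D1:**
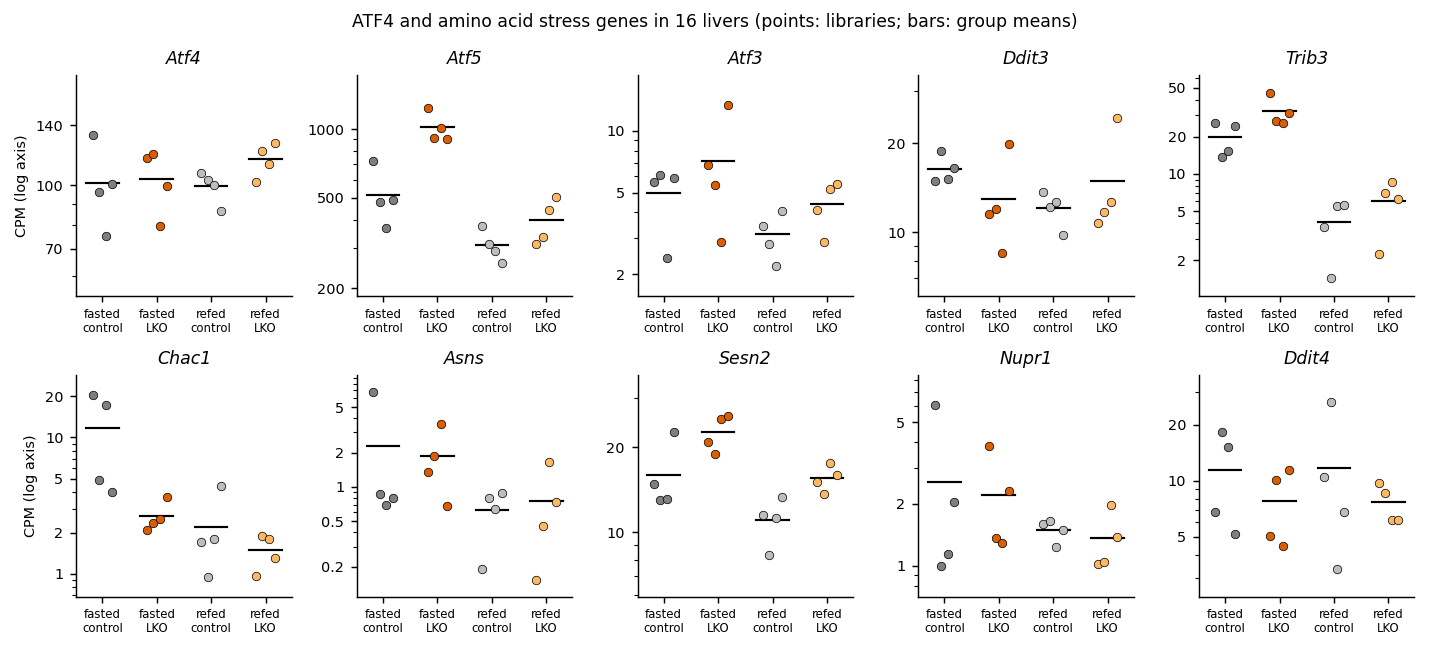
Level of each of the 10 genes in CPM (log axis, a separate scale per gene) in the 16 libraries, by group. Points are libraries and bars are group means. Atf5 stands at 904 CPM or more in each of the 4 fasted LKO libraries, Trib3 is low in each refed library, and Chac1 is high in 2 of the 4 fasted control libraries.

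Fasted LKO livers differed from fasted control livers in 2 of the 10 genes, with Atf5 higher and Chac1 lower. The edgeR quasi-likelihood test with Benjamini-Hochberg adjustment was used throughout, a gene being called at an adjusted p under 0.05, and it called 12.2% of all genes tested in this comparison, 5.75% higher and 6.48% lower in LKO. The count of 2 in 10 is thus near the background. The median log2 fold change of the 10 genes, LKO over control, was -0.10, against 0.02 for all genes tested, with 5 above and 5 below 0.

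Among the transcription factors, Atf5 was at 724, 476, 369 and 487 CPM in the fasted control livers and at 1240, 915, 1006 and 904 CPM in those of fasted LKO mice. Every LKO library lay above every control library, and groups without overlap in either direction were found for 16.9% of genes tested. Its fitted log2 change was 0.98 (SE 0.20, adjusted p = 0.0041), a 1.98-fold rise, and leaving out any library kept the call (highest adjusted p 0.017, without S44). The span of Atf5 shares 571 bases with the opposite-strand gene Nup62, which was at 11.6 to 30.0 CPM, and whether counting used the strand is not given in the sources used here.

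Atf4 itself was at 133, 96.2, 75.2 and 101 CPM in fasted control and at 117, 119, 79.7 and 99.6 CPM in fasted LKO livers. The groups overlapped almost fully, and the fitted log2 change was 0.04 (SE 0.15, adjusted p = 0.91). Atf3, an early repressor and activator induced by many stresses, ran from 2.40 to 6.07 CPM in control and from 2.86 to 13.4 CPM in LKO livers, a log2 fold change of 0.50 (SE 0.38, adjusted p = 0.43) that was 0.011 without S47. Ddit3, which encodes CHOP, a factor tied to prolonged ER stress and cell death, was at 14.9 to 18.8 CPM in control livers. In LKO livers it was at 11.5, 12.0, 8.52 and 19.95 CPM, so that 3 libraries lay below the control range and S47 above it (log2 fold change -0.33, SE 0.25, adjusted p = 0.44).

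Chac1 degrades glutathione in the cytosol and is among the most responsive ATF4 targets. It was at 20.6, 4.90, 17.3 and 4.02 CPM in fasted control livers and at 2.10, 2.38, 2.52 and 3.67 CPM in fasted LKO livers. The groups did not overlap, as for 16.9% of genes tested in either direction, and within the control group S40 and S42 were several-fold above S41 and S43. The fitted log2 change was -2.14 (SE 0.49, adjusted p = 0.010). Leaving out S40 alone gave an adjusted p of 0.041. With S40 and S44, the libraries high in smooth muscle genes, left out together, it was 0.11 at a log2 fold change of -1.61, so the call was lost, while the share of genes called fell to 4.37% and Atf5 remained called.

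Trib3, a pseudokinase that restrains ATF4, CHOP and AKT signalling, was at 26.1, 13.8, 15.4 and 24.3 CPM in fasted control livers and at 45.5, 27.0, 25.7 and 31.0 CPM in fasted LKO livers. The lowest LKO library was just under the highest control library, and the log2 fold change of 0.70 (SE 0.35) did not pass (adjusted p = 0.21). In the authors' deposited table the same difference has an adjusted p of 0.042. Sesn2, a leucine-binding inhibitor of mTORC1, was at 14.9, 13.0, 13.1 and 22.7 CPM in control and at 20.9, 18.9, 25.3 and 25.9 CPM in LKO livers. A single control library, S43, overlapped the LKO range. The log2 fold change of Sesn2 was 0.51 (SE 0.17, adjusted p = 0.066), and over the libraries left out singly it ran from 0.42 (adjusted p = 0.17, without S42) to 0.73 (adjusted p = 0.0082, without S43). Leaving out S40 and S44 gave an adjusted p of 0.19.

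The other 3 genes of this comparison had wide groups. Asns, which makes asparagine from aspartate and glutamine, was at 6.85 CPM in S40 and at 0.875, 0.695 and 0.803 CPM in the other fasted control livers. Fasted LKO livers were at 1.35, 1.87, 3.53 and 0.684 CPM. The fitted log2 change was -0.34 (SE 0.71, adjusted p = 0.81), and without S40 and S44 it was 1.36 with an adjusted p of 0.29. Nupr1, a small stress-induced chromatin protein, was likewise highest in S40 (6.06 CPM) and S44 (3.84 CPM) and at 0.992 to 2.30 CPM in the other fasted libraries. Its fitted log2 change was -0.23 (SE 0.48, adjusted p = 0.81) with these libraries and 0.24 (adjusted p = 0.77) without them. Ddit4, an inhibitor of mTORC1 that also answers glucocorticoids, ran from 5.19 to 18.3 CPM in control and from 4.48 to 11.4 CPM in LKO livers (log2 fold change -0.56, SE 0.52, adjusted p = 0.54).

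In the refed state none of the 10 genes was called between genotypes by edgeR, where 3.63% of all genes tested were. DESeq2 and limma-voom also called 0, and 1 gene, Sesn2, had an unadjusted p under 0.05, as did 18.4% of all genes tested. The median log2 fold change of the 10 was 0.27, against -0.01 for all genes tested, and 7 of the 10 values were above 0. Sesn2 was at 11.6, 8.29, 11.2 and 13.3 CPM in refed control and at 15.1, 13.7, 17.6 and 16.0 CPM in refed LKO livers. These groups did not overlap, as for 11.7% of genes tested, and the fitted log2 change was 0.49 (SE 0.18, adjusted p = 0.14); the authors' deposited table gives an adjusted p of 0.038. Atf5 was at 376, 311, 292 and 258 CPM in refed control and at 312, 334, 441 and 503 CPM in refed LKO livers, a log2 fold change of 0.36 (SE 0.19, adjusted p = 0.34). Chac1, called in the fasted state, was at 0.956 to 4.41 CPM in refed control and at 0.972 to 1.90 CPM in refed LKO livers (log2 fold change -0.56, SE 0.56, adjusted p = 0.65); without S51, the refed control library at 4.41 CPM, it was -0.028. Trib3 (0.56, SE 0.40), Atf3 (0.52, SE 0.39), Ddit3 (0.31, SE 0.25), Asns (0.24, SE 0.86) and Atf4 (0.22, SE 0.15) had positive log2 fold changes, and Ddit4 (-0.62, SE 0.52) and Nupr1 (-0.13, SE 0.51) negative ones, with adjusted p from 0.47 to 0.93. For Ddit3 the value rested on S55, at 24.4 CPM, since the other refed LKO livers were at 10.8 to 12.7 CPM and the refed control livers at 9.77 to 13.7 CPM; without S55 it was -0.046.

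Whether the genotype difference itself depended on feeding was tested by the interaction term, which called 0.538% of genes and 0 of the 10. An unadjusted p under 0.05 was found for 2 of the 10 and for 16.5% of all genes tested, and DESeq2 and limma-voom called 0. The 2 were Atf5, whose log2 difference was 0.62 smaller after refeeding (interaction -0.62, SE 0.27, adjusted p = 0.27), and Chac1, whose LKO fall was smaller after refeeding (interaction 1.58, SE 0.74, adjusted p = 0.30). The genotype differences in the fasted and refed states are thus not shown to differ for any of the 10.

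**Figure D2:**
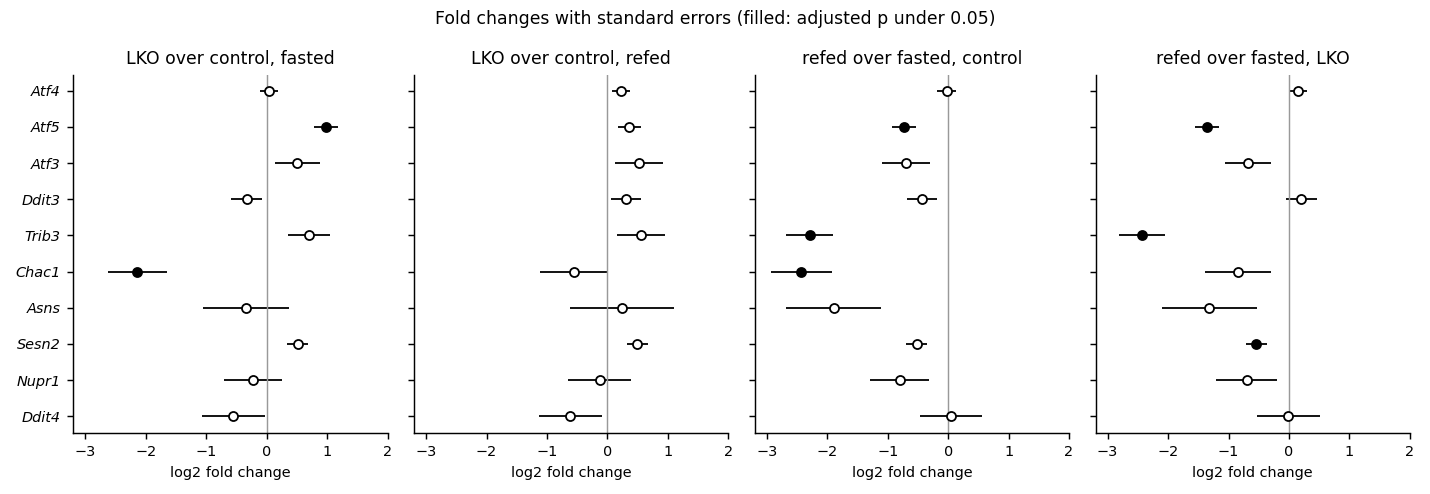
Log2 fold change (x axis) of the 10 genes in the 4 comparisons, LKO over control on the left and refed over fasted on the right; bars are standard errors and filled points have an adjusted p under 0.05. Trib3 lies near -2.3 and -2.4 in the 2 refeeding comparisons, and Chac1 at -2.14 in the fasted genotype comparison and -2.43 in control refeeding.

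Refeeding lowered 3 of the 10 genes in control livers (Trib3, Chac1 and Atf5) and 3 in LKO livers (Trib3, Atf5 and Sesn2), and raised 0 in either. Over all genes tested, 15.4% were called in control and 18.1% in LKO livers; those called lower made up 7.65% and 8.78% of the genes tested. The median log2 fold change of the 10 was -0.71 in control and -0.69 in LKO livers, against 0.01 and -0.02 for all genes tested, with 9 and 8 of the 10 below 0. Without S40 and S44, 2 of the 10 were called in control livers (Trib3 and Chac1), where 8.74% of genes were, and 2 in LKO livers (Trib3 and Atf5), where 13.9% were. The refeeding comparisons share the fasted libraries with the fasted genotype comparison, so the values of a gene in these comparisons are not independent.

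Trib3 fell in both genotypes. It was at 3.71, 1.43, 5.45 and 5.63 CPM in refed control livers and at 2.25, 6.998, 8.53 and 6.32 CPM in refed LKO livers, each below the lowest fasted library of either genotype (13.8 CPM). Groups without overlap were found for 20.4% of genes tested in control and 20.6% in LKO livers. The fitted log2 change was -2.29 (SE 0.39, adjusted p = 0.0015) in control and -2.43 (SE 0.38, adjusted p = 4.3e-04) in LKO livers. The interaction of -0.14 (SE 0.53, adjusted p = 0.92) gave no difference between genotypes beyond its error. Neither call was lost under any alternative run, with a highest adjusted p of 0.0075 (without S48) in control and 0.0024 in LKO livers.

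Atf5 fell from 514 ± 150 CPM (n = 4) to 309 ± 49.6 CPM (n = 4) on refeeding of control mice, a log2 fold change of -0.73 (SE 0.19, adjusted p = 0.019). The groups overlapped, since the highest refed library (376 CPM) exceeded the lowest fasted library (369 CPM). The call was lost without S40, at an adjusted p of 0.079, and without S50, at 0.056. In LKO livers Atf5 fell from 1016 ± 156 to 397 ± 90.3 CPM (log2 fold change -1.35, SE 0.20, adjusted p = 2.9e-04). These groups did not overlap, as for 20.6% of genes tested, and the call held with any 1 library left out.

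Chac1 fell in control livers from 11.7 ± 8.47 to 2.22 ± 1.51 CPM (n = 4 each), a log2 fold change of -2.43 (SE 0.50, adjusted p = 0.0051). The values overlapped through S51, the refed control library at 4.41 CPM, which was above S43, the fasted library at 4.02 CPM. Without S40 and S44 the adjusted p was 0.027. In LKO livers, where Chac1 was already low when fasted, it went from 2.67 ± 0.69 to 1.49 ± 0.43 CPM, and the log2 fold change of -0.85 (SE 0.55, adjusted p = 0.32) did not pass. The 4 refed libraries lay below the 4 fasted ones, and groups without overlap in either direction were found for 20.6% of genes tested.

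Sesn2 fell in LKO livers from 22.7 ± 3.40 to 15.6 ± 1.63 CPM, a log2 fold change of -0.54 (SE 0.17, adjusted p = 0.039). This call was near the threshold: it was lost without any one of S44, S46, S47, S52, S53 or S55 (highest adjusted p 0.10, without S53), without S40 and S44 together (0.062) and with no filter on low counts (0.050). In control livers the log2 fold change of Sesn2 was -0.52 (SE 0.18, adjusted p = 0.057), nearly the same size, and the interaction was -0.02 (SE 0.25, adjusted p = 0.98). Sesn2 passed in control livers under DESeq2 (adjusted p = 0.029).

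The remaining 6 genes were not called on refeeding. Atf4 was at 107, 103, 100 and 86.4 CPM in refed control and at 102, 121, 113 and 127 CPM in refed LKO livers, with log2 fold changes of -0.03 (SE 0.15, adjusted p = 0.92) and 0.16 (SE 0.15, adjusted p = 0.52). Ddit3 in control livers had a log2 fold change of -0.43 (SE 0.25, adjusted p = 0.27). Its 4 refed libraries at 9.77 to 13.7 CPM lay below the 4 fasted ones at 14.9 to 18.8 CPM, such lack of overlap being found for 20.4% of genes tested in either direction. The authors' deposited table gives it an adjusted p of 0.025. Atf3 had log2 fold changes of -0.70 (SE 0.39) and -0.68 (SE 0.38), and Nupr1 of -0.80 (SE 0.49) and -0.70 (SE 0.50), in control and LKO livers. Atf3 in LKO livers was at -0.19 without S47, and Nupr1 at 0.10 without S40 in control and -0.28 without S44 in LKO livers. Asns stood at -1.89 (SE 0.79, adjusted p = 0.11) in control livers, which became -0.33 (adjusted p = 0.81) without S40. Ddit4 was at 0.05 (SE 0.51) and -0.01 (SE 0.53), with 1 refed control library, S49, at 26.5 CPM and another, S50, at 3.34 CPM.

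Within groups, some libraries were highest or lowest for several of the 10 genes. Among fasted control livers S40 was highest for 6 of the 10 (Atf4, Atf5, Trib3, Chac1, Asns and Nupr1) and S42 lowest for 4. S47 was highest for 5 genes among fasted LKO livers, with Atf3 at 13.4 and Ddit3 at 19.95 CPM, and S46 was lowest for 6. Among refed LKO livers S52 was lowest for 7. S40 is also the control library high in Acta2 and Myh11, and its mean deviation over the 10 genes was 0.59 log2 units above its group, against 0.08 for S44, which had more Acta2. S44 was highest among fasted LKO livers for 3 genes, Atf5, Trib3 and Nupr1, each of which was also highest in S40 among controls. Whether smooth muscle RNA bears on these levels was not tested.

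**Figure D3:**
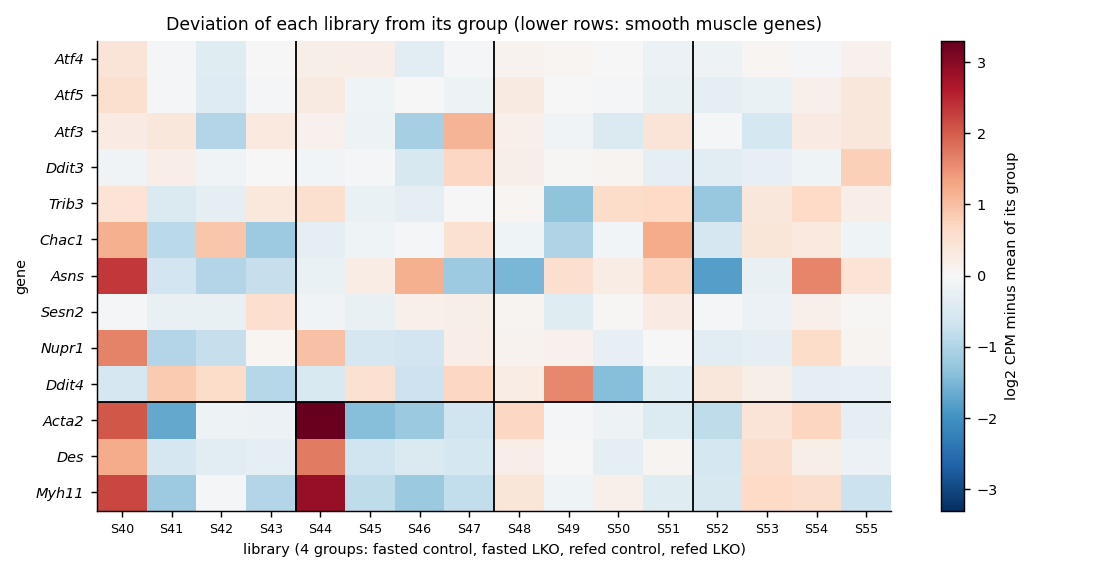
Log2 CPM of each library minus the mean of its group (colour), for the 10 genes and, below the line, 3 smooth muscle genes; columns are the 16 libraries in their 4 groups. S40 is high for Asns, Nupr1 and Chac1. S44, which is highest in Acta2, is the highest fasted LKO library for Atf5, Trib3 and Nupr1, and S40 is the highest fasted control library for the same genes.

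Lists of genes around the pathway were read against the same background. Over all genes tested, edgeR called 12.2% in the fasted genotype comparison and 3.63% in the refed one. On refeeding it called 15.4% in control and 18.1% in LKO livers. With S40 and S44 left out, the fasted share was 4.37% and the refeeding shares were 8.74% and 13.9%. In the fasted comparison, 1 called of 10, or 2 of 10 or 12, is thus near the background. Upstream, of 10 genes for eIF2alpha kinases, phosphatases and regulators, the fasted genotype comparison called 1, Gcn1, a partner of the amino acid sensor GCN2, which fell by 0.32 on the log2 scale (adjusted p = 0.035). That call was lost with S40 and S44 left out (adjusted p = 0.23). Between refed groups edgeR called 0 (1 at an unadjusted p under 0.05, 0 by limma-voom and 1 by DESeq2). Refeeding raised 2 in control livers, Eif2s1 (0.33), the gene of eIF2alpha itself, and Ppp1r15b (0.32), which encodes a constitutive eIF2alpha phosphatase subunit, and in LKO livers it raised 2, Eif2s1 (0.33) and Gcn1 (0.31), and lowered Eif2ak1 (-0.30), the gene of HRI. With S40 and S44 left out, Eif2s1 alone of these was called on refeeding, in both genotypes, and the adjusted p was 0.052 for Ppp1r15b, 0.095 for Gcn1 and 0.077 for Eif2ak1.

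Among downstream genes of amino acid supply, 8 amino acid transporters were tested, of which edgeR called 0 in the fasted genotype comparison (2 at an unadjusted p under 0.05, 0 by limma-voom and 2 by DESeq2). In the refed comparison 1 was called, Slc1a5, a glutamine carrier, which was at 2.42 ± 0.20 CPM in control and 8.03 ± 1.35 CPM in LKO livers (log2 fold change 1.73, SE 0.27, adjusted p = 0.0027). Of 10 tested enzymes of amino acid synthesis and folate metabolism, Gpt2, a mitochondrial alanine transaminase, rose in fasted LKO livers (log2 fold change 0.62, adjusted p = 0.0024). Shmt2, which makes one-carbon units from serine in mitochondria, fell (-0.58, adjusted p = 0.0036). These were 2 of 10 and in opposite directions, and 0 of the 10 were called by edgeR in the refed state (3 at an unadjusted p under 0.05, 0 by limma-voom or DESeq2). On refeeding, 1 of the 8 transporters fell in control livers and 1 rose in LKO livers. Of the 10 enzymes, refeeding changed 0 in control livers and raised 1 in LKO livers. With S40 and S44 left out, 0 enzymes rose in LKO livers and 1, Gpt2, fell. Of 12 cytosolic aminoacyl-tRNA synthetases, Gars rose (0.32) and Wars fell (-0.29) in fasted LKO livers, the latter at an adjusted p of 0.16 with S40 and S44 left out. Refeeding raised 4 in control livers (Iars 0.50, Nars 0.37, Eprs 0.32 and Aars 0.34) and 3 in LKO livers (Wars 0.49, Aars 0.54 and Yars 0.36), and lowered 0, the opposite direction to Trib3 and Atf5.

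Of 13 other genes known to respond to ATF4, fasted LKO livers had 2 higher and 2 lower. Fgf21, a hormone secreted by the fasted liver, went from 18.8 ± 15.1 to 67.8 ± 24.1 CPM (log2 fold change 1.84, SE 0.57, adjusted p = 0.045), and Tnfrsf10b, a death receptor and CHOP target, rose at a low level (1.62, adjusted p = 0.011). Vldlr, a lipoprotein receptor, fell (-1.41, adjusted p = 0.0097), and so did Cebpb, a partner of ATF4 (-0.76, adjusted p = 0.048). Without S40 and S44 the adjusted p in this fasted comparison was 0.055 for Fgf21, 0.051 for Tnfrsf10b, 0.056 for Vldlr and 0.17 for Cebpb, so 0 of the 13 were called. In the refed comparison, whose groups do not include S40 or S44, edgeR called 1 of the 13, lower in LKO, where 3.63% of all genes were called. There 5 of the 13 had an unadjusted p under 0.05. Limma-voom called 1, Vldlr, and DESeq2 called 2, Vldlr and Tnfrsf10b. On refeeding of control livers 6 of the 13 fell and 2 rose, among the former Map1lc3b (-0.77) and Sqstm1 (-0.64) of autophagy, Eif4ebp1 (-0.83), a translation repressor, and Gdf15 (-1.87), a stress hormone; 5 fell and 2 rose with S40 and S44 left out. In LKO livers 3 fell (Sqstm1 -0.87, Map1lc3b -0.58 and Fgf21 -1.74) and 0 rose, Fgf21 being at an adjusted p of 0.085 with S40 and S44 left out. Of 7 genes of mitochondrial stress relay and chaperones, Hspa9 (0.33) and Hspd1 (0.37) rose in fasted LKO livers. Both calls were lost with S40 and S44 left out (adjusted p = 0.086 and 0.20). In the refed comparison edgeR called 0 of the 7 (3 at an unadjusted p under 0.05, 0 by limma-voom and 1 by DESeq2). On refeeding 2 rose and 1 fell in control livers, and 2 rose and 0 fell in LKO livers. With S40 and S44 left out, 1 rose and 0 fell in each genotype.

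The ER arm was read last among the branches. Of 14 ER chaperones and genes of the IRE1 and ATF6 branches, 12 fell in fasted LKO livers, with a median log2 fold change of -0.68, and 5 fell in refed LKO livers. Over all genes tested, 6.48% were called lower in fasted LKO, and 3.63% were called in either direction between refed groups. Hspa5, the chaperone BiP, was at 656 ± 146 CPM in fasted control and 338 ± 137 CPM in fasted LKO livers (log2 fold change -0.96, SE 0.22, adjusted p = 0.0098). Refeeding raised 8 of the 14 in control and 11 in LKO livers and lowered 0, where Trib3 and Atf5 fell. The shares of all genes called on refeeding, in either direction, were 15.4% and 18.1%. When S40 and S44 were left out, 9 of the 14 fell in fasted LKO livers and 6 rose on refeeding of control livers.

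Paralogs and general stress genes were read beside the 10. Of 9 paralogs, Sesn3 rose in fasted LKO livers (0.37, adjusted p = 0.047) and fell on refeeding in them (-0.43), where Chac2, the constitutive relative of Chac1, rose (0.72, adjusted p = 0.0030). On refeeding Chac2 went from 22.3 to 30.0 CPM in control and from 16.8 to 27.7 CPM in LKO livers. In control livers edgeR called 0 of the 9 on refeeding, while limma-voom and DESeq2 each called 2, Chac2 and Nupr1l. The interaction term called 0 of the 9. Of 8 glucocorticoid-responsive genes, 0 were called by edgeR between genotypes in either state (3 and 0 at an unadjusted p under 0.05, 1 and 0 by limma-voom, 0 and 0 by DESeq2). Mt2, a metallothionein, was the 1 called lower on refeeding, by 3.72 in control and by 3.96 in LKO livers on the log2 scale. Most of the list went the other way, with 7 of the 8 above 0 in control and 6 in LKO livers (medians 0.31 and 0.53). In LKO livers 1 was called higher, a call lost with S40 and S44 left out. Of 11 immediate early genes, which rise within minutes of stimulation or of tissue handling, Gadd45b (1.73) and Klf6 (0.72) rose in fasted LKO livers. Junb (-1.81) and Fos (-1.53) fell on refeeding of control livers, and Junb (-1.54), Gadd45b (-1.72) and Klf6 (-0.65) on refeeding of LKO livers, in the same comparisons in which Trib3 and Atf5 fell. Leaving out S40 and S44 ended the calls of Fos (adjusted p = 0.078) and, on refeeding of LKO livers, Klf6 (0.13). In the same setting, the fasted genotype comparison called 0 immediate early genes, 0 paralogs, 0 mitochondrial genes and 0 eIF2alpha regulators, and it called Slc1a5 higher (1.09, adjusted p = 0.040).

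**Figure D4:**
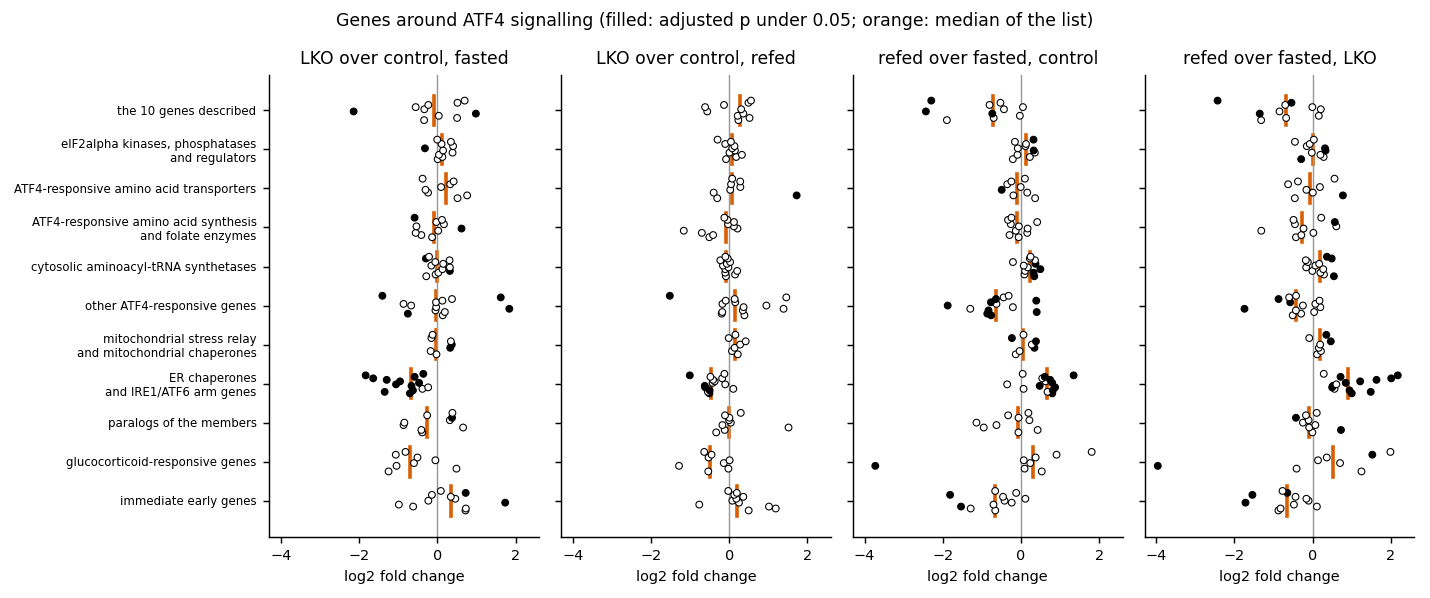
Log2 fold change of each tested gene (points; filled at an adjusted p under 0.05) in the 10 genes described and 10 lists around them, in 4 comparisons; the orange bar is the median of the list. Of the 14 ER genes, 14 lie left of 0 in the fasted and 13 in the refed genotype comparison, and 13 lie right of 0 on refeeding of control and 14 of LKO livers, whereas the medians of the 10 genes lie near -0.7 on refeeding.

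For the 4 genes called in any comparison, the genes whose log2 CPM followed them most closely over the 16 libraries were listed as a description. The libraries share group structure, so r was also taken after group means were removed. Trib3 was followed by Nr1d1 (r = 0.97, and 0.86 within groups), a repressor of the circadian clock, by Sqstm1 (0.96 and 0.79) and by Hyal2 (0.96 and 0.76). Nr1d1 went from 152 to 31.1 CPM on refeeding of control livers and from 168 to 40.6 CPM in LKO livers, falls of 2.29 and 2.05 on the log2 scale (adjusted p = 7.2e-04 and 6.3e-04). Atf5 was followed by Grn (0.93 and 0.50), Bahd1 (0.91 and 0.52) and Spg21 (0.91 and 0.42). Sesn2 was followed by H1f2 (0.92 and 0.86), Spon2 (0.91 and 0.68) and Crot (0.90 and 0.64), and Chac1 by Rab11b-ps2 (0.90 and 0.77), Selenow (0.89 and 0.63) and Cabin1 (0.89 and 0.84).

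The gene spans of the deposited tables, on mm39 per the submitters' processing notes, are given for the 4 genes that were called. Atf5 (ENSMUSG00000038539) lies at chr7:44461680-44466082 on the minus strand, Chac1 (ENSMUSG00000027313) at chr2:119181710-119184862 on the plus strand, Trib3 (ENSMUSG00000032715) at chr2:152179342-152185952 on the minus strand and Sesn2 (ENSMUSG00000028893) at chr4:132219343-132237812 on the minus strand. Sesn2 holds within its span 6089 bases shared with the lncRNA Gm12981 on the same strand, which was at 0 to 0.10 CPM. Ddit3 shares 68 bases with the opposite-strand gene Mars1, which was at 48.1 to 65.9 CPM, above Ddit3 itself.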

How the data were processed

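Poly-A RNA from liver was sequenced in 16 libraries, and reads were aligned with HISAT2 2.0.5 to mm39 per the submitters' processing notes. The counting tool, its use of strand and the annotation are not given in the sources used here. The authors deposited 4 tables, each of 8 libraries, with raw read counts per gene. Their tables also hold log2 fold changes and adjusted p-values deposited by the authors (quoted with LKO, or the refed state, as numerator) and gene lengths in bases. Other per-library columns (64) were left aside. Columns were placed in groups by the headings of the tables.

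The tables were joined on gene identifier (25803 genes, 0 counts differing between tables). Where the tables holding a library do not list a gene, its count there was set to 0, which touched 3148 genes and 0 of those tested. In R 4.3.3 with edgeR 4.0.16, genes passing filterByExpr (14488) were scaled by TMM (factors 0.941 to 1.07) and fitted by glmQLFit with 4 groups as a factor (biological coefficient of variation 0.185). Tests were adjusted by Benjamini-Hochberg over all genes tested. SE is the log2 fold change divided by the square root of F. The procedure was tested on simulated data. Alternatives were RLE and upper quartile scaling, no filter, a mean of at least 5 CPM, limma-voom (limma 3.58.1), DESeq2 1.42.0, a fit of the compared groups alone, each library left out and, added after seeing the data, S40 and S44 left out.

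The genes and lists were chosen with earlier results of these data known. Named genes are Cpt1a, the 10 genes, up to 4 called genes with the smallest p per list, and for each called gene the 3 symbols with a mean of at least 5 CPM and the highest Pearson r on log2 CPM (prior count 2), predicted genes passed over; Acta2, Myh11, Krt19 and a few list genes beyond that number were named after their values were seen. Promoters are from the RefSeq table of GRCm38.p6, where 10 of 10 genes matched by symbol.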

Additional observations from a re-analysis of the deposited data

Results flagged for a closer look

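In 40 gene and group combinations, the gap of the highest or lowest library to its neighbour was divided by the range of the group and set against Dixon's critical value for 4 samples. It was exceeded in 3 of the 40, where chance gives about 5% of the 40 for independent, normally distributed values. The genes share libraries, so that share is only a guide, and 3 of 40 is not read as an excess. Asns in fasted control was highest in S40 at 6.85 CPM, where its 3 companions lay at 0.695 to 0.875 CPM (ratio 0.97). Ddit3 in refed LKO was highest in S55 at 24.4 CPM, against 10.8 to 12.7 CPM (ratio 0.86). Atf3 in fasted control was lowest in S42 at 2.40 CPM, against 5.66 to 6.07 CPM (ratio 0.89).

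Among the lists around the 10 genes, Manf, an ER stress-induced secreted protein, was the 1 gene called by the interaction term, which called 0.538% of all genes tested. It was at 126 ± 22.5 CPM in fasted control and 40.5 ± 18.7 CPM in fasted LKO livers (n = 4 each), and at 184 ± 25.8 and 163 ± 21.8 CPM in the refed groups. The interaction was 1.46 (SE 0.32, edgeR adjusted p = 0.049). Without S40 and S44 the interaction of Manf was 1.41 with an adjusted p of 0.15, so the call was lost. In that setting the interaction term called 1 of 14524 genes tested.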

How the results depend on the processing

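No paired analysis was possible because the count columns carry no replicate number. Over 50 fold changes of the 10 genes, 839 alternative values were computed: 744 kept direction and side of the threshold, 12 lost a call, 10 gained one and 73 changed sign, each of the last for an uncalled value. The fasted count of 2 became 1 with a mean of at least 5 CPM (which leaves 6 of the 10 genes, Chac1 not among them) and 1 without S40 and S44; counts for refed, interaction and both refeeding comparisons stayed within 1.5 times. The gains were Sesn2 in control refeeding (5; among them without S41, S42 or S51), Sesn2 in the fasted genotype comparison (4; limma-voom, DESeq2, without S43 or S45) and Ddit3 in control refeeding with only the compared groups (adjusted p = 0.044); the cause was not tested. Signs turned with limma-voom for Asns in the fasted (0.11), refed (-0.049) and interaction (-0.16) comparisons, Ddit4 in control refeeding (-0.22), LKO refeeding (0.092) and interaction (0.31), and Nupr1 in the interaction (-0.14); with no filter for Ddit4 in LKO refeeding (0.0029); and with upper quartile scaling for Atf3 in the interaction (-0.0013). Without S40 and S44 they turned for Asns fasted (1.36) and interaction (-1.12), Nupr1 fasted (0.24), control refeeding (0.10) and interaction (-0.38), Atf4 (0.13) and Ddit4 (-0.13) in control refeeding, and Atf3 in the interaction (-0.069). Leaving out single libraries gave fasted ranges of -0.093 to 0.19 for Atf4, -0.85 to 1.22 for Asns and -0.66 to 0.67 for Nupr1. Refed ranges were -0.45 to 0.59 for Asns, -0.046 to 0.44 for Ddit3 and -0.94 to 0.18 for Ddit4. In control refeeding they were -0.15 to 0.13 for Atf4, -1.07 to 0.10 for Nupr1 and -0.75 to 0.38 for Ddit4, and in LKO refeeding -0.15 to 0.49 for Ddit3 and -0.20 to 0.23 for Ddit4. For the interaction they were -0.99 to 1.08 for Asns, -0.24 to 0.51 for Atf3, -0.39 to 0.74 for Ddit4, -0.80 to 0.53 for Nupr1, -0.24 to 0.077 for Sesn2 and -0.42 to 0.14 for Trib3. Asns and Nupr1 had the fewest counts (3 to 138 and 16 to 122 per library), and the part of counting depth in their spread was not tested.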
